A study of Mus musculus with 6 samples.

Results

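The mitosis and spindle genes are the 44 genes named for this description: the cyclins and kinases that drive a cell into mitosis, the checkpoint, centromere and kinetochore proteins that watch and hold the chromosomes, the kinesins and spindle proteins that move them, and the proteins that end mitosis and split the cell. A gene counted as measured when the array held a probe set, a set of short probes read as 1 value, annotated with that gene's symbol alone, and the probe set with the highest mean over the 6 samples stood for the gene. By this rule 43 of the 44 genes were measured, out of 18193 genes in all, and Ccnb1 (cyclin B1) had no such probe set. The members were chosen by name and function and not by their values here, although earlier results of these data were known when they were chosen.

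Gene expression was measured in whole spleens of adult F1 females on Affymetrix arrays, 1 spleen to an array. The AKR/J hybrids, (AKR/J x FVB/NJ)F1, and the DBA/2J hybrids, (DBA/2J x FVB/NJ)F1, were 3 animals each. Every animal therefore carries 1 FVB/NJ genome, which both groups share, and the labels name no treatment other than Avertin anaesthesia at death. The study asks which transcripts differ between these genotypes at baseline. Values are log2 expression as deposited, and all differences are taken as AKR/J hybrids minus DBA/2J hybrids, so a negative difference is higher in the DBA/2J hybrids.

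The transcripts of these genes rise as a cell passes from G2 into mitosis and are low in resting cells, so in a tissue they report mainly on its dividing cells. In the mouse spleen these include red cell precursors, since the adult mouse spleen keeps making red cells, and B cells of germinal centres. Many of these genes share promoter elements: CCAAT boxes, bound by NF-Y, and the cell cycle homology region, through which the DREAM and MuvB complexes hold the genes silent in resting cells and raise them in G2 and mitosis. In a bulk sample, fewer dividing cells and less of the RNA in each cannot be told apart.

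Array medians lay between 5.04 and 5.10. The spleens expressed lymphocyte markers, with a mean level of 7 T cell genes between 8.23 and 8.81 and of 6 B cell genes between 10.41 and 10.90. Replicate 3 of the DBA/2J hybrids stood apart: the mean level of 10 pancreatic acinar genes was 6.13 there and 13.27 to 13.89 in the other 5 arrays. The other 5 spleen samples thus held abundant pancreatic transcripts, and their source was not tested. The low level in replicate 3 of the DBA/2J hybrids does not by itself show a fault in that array, and array quality was not tested. The count of members past the threshold, and the names of those that lose their call, are also given without replicate 3 of the DBA/2J hybrids.

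The promoters of the members carry the shared elements in their letters, and stretches of 7 of them are shown because they hold, or lack, these elements close to the gene start. RefSeq promoter windows (GRCm38.p6, 250 bases before to 50 after the gene start) were given for 37 of the 44 genes, in 40 windows because Bub3, Ect2 and Prc1 have 2 each. Each stretch runs 5′ to 3′ on the gene's strand over the 120 bases before the start, and capitals mark CCAAT (or its reverse complement ATTGG) and the cell cycle homology region, searched as TTTGAA (reverse complement TTCAAA) and TTCGAA. Ube2c, Prc1, Kif11, Cdc20 and Cdk1 are the members with the smallest p-values among those with both elements in the stretch, Bub3 has both and did not pass the test between the crosses, and Nusap1 has neither in its window and did pass.
Ube2c, chr2:164769809-164769928, plus strand: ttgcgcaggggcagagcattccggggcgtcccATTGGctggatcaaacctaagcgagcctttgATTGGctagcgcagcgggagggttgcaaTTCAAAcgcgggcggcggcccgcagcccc
Prc1, chr7:80294356-80294475, plus strand: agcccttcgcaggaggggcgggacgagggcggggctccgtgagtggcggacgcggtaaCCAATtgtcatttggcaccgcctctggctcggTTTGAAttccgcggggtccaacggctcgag
Kif11, chr19:37376262-37376381, plus strand: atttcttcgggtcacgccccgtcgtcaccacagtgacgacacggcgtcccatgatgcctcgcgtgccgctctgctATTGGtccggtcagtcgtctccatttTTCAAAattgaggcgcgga
Cdc20, chr4:118437344-118437463, minus strand: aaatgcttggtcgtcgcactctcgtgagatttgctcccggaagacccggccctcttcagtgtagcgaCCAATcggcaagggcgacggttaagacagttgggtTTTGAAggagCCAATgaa
Cdk1, chr10:69352913-69353032, minus strand: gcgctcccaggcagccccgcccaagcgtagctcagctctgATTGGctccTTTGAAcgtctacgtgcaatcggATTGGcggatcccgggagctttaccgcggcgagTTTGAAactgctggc
Bub3, chr7:131560250-131560369, plus strand: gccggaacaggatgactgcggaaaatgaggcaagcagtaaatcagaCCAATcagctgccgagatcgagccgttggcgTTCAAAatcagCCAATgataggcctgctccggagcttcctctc
Nusap1, chr2:119618178-119618297, plus strand: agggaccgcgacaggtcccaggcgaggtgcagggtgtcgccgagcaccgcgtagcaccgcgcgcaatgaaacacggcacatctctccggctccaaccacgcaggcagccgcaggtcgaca

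In the stretches of Ube2c, Prc1 and Kif11 a cell cycle homology region lies 19 to 30 bases before the start, downstream of the nearest CCAAT box. In those of Cdc20 and Bub3 it lies 18 and 43 bases before the start, upstream of the nearest CCAAT box (8 and 32 bases before). A cell cycle homology region was found in 32 of the 40 member windows (80.0%), against 6316 of the 32851 windows of all genes (19.2%), on either strand. CCAAT was found in 30 member windows (75.0%) and in 37.4% of all windows, and 2 or more copies in 52.5% and 11.7%. Both elements stood in 28 member windows (70.0%) and in 7.5% of all windows. The member windows had a higher base composition of G and C, with a median of 58.5% against 52.7%. Across the member windows the 2 elements overlapped in 1 place. Of 44 matches to the cell cycle homology region, 30 (68.2%) started between 50 bases before the start and 49 after it, against 25.2% of the matches in all windows. Of 69 CCAAT matches, 46 (66.7%) started in the 100 bases before the start, against 43.6%. These are descriptions of letters in a window, counted over windows that can belong to 1 gene.

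**Figure D1:**
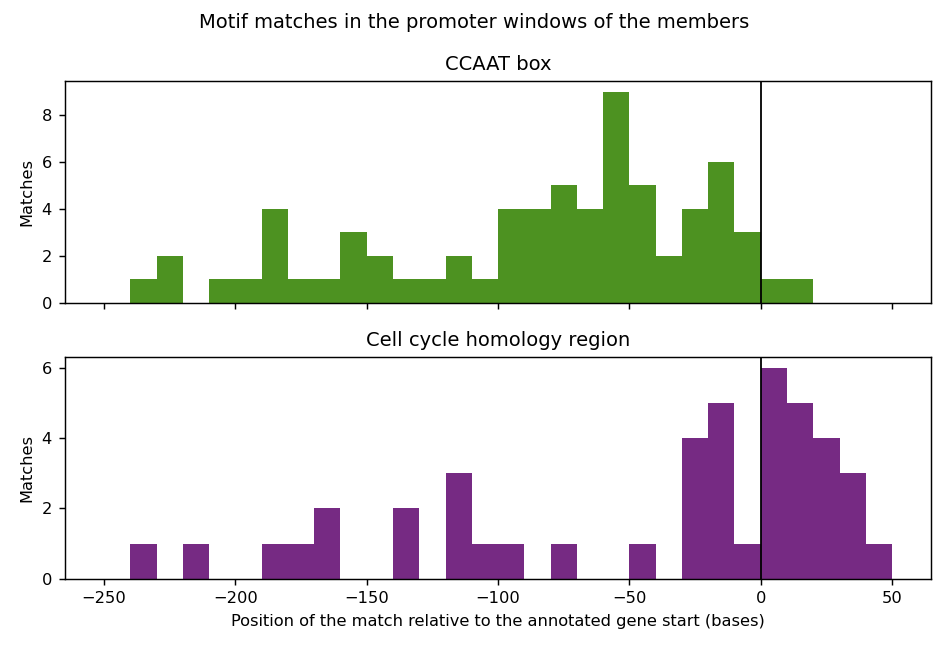
Positions of CCAAT and of the cell cycle homology region in the 40 promoter windows of the members, as the number of matches (vertical axis) in bins of 10 bases along the distance from the annotated gene start (horizontal axis, 0 is the start). CCAAT matches lie mostly in the 100 bases before the start (46 of 69), and cell cycle homology regions mostly between 50 bases before and 49 after it (30 of 44).

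Mitosis and spindle transcripts were higher in the spleens of the DBA/2J hybrids. Of the 43 measured genes, 37 passed an adjusted p of 0.05 toward the DBA/2J hybrids (limma, Benjamini-Hochberg over all 18193 genes), where 8.31% of all genes did so, and 0 passed toward the AKR/J hybrids, where 8.91% of all genes did (17.2% in either direction). The other 6 genes did not pass and also had negative differences. The median difference was -1.10 over the members and -0.01 over all genes, and the members ran from -1.83 (Ube2c) to -0.12 (Kif15). At least a 2-fold difference was seen in 25 members, all of which passed, against 1.07% of all genes at that fold in the same direction and 1.03% at that fold and past the threshold. That count was 15 when each gene's probe sets were averaged, and 19 to 33 with 1 array left out. The 3 arrays of the DBA/2J hybrids all lay above the 3 of the AKR/J hybrids for 40 of the 43 genes, against 19.2% of all genes, while the reverse order held for 0 members and for 22% of all genes. Leaving out 1 array changed how many passed: 8, 30 and 9 members did with AKR/J replicate 1, 2 or 3 left out, and 40, 9 and 21 with DBA/2J replicate 1, 2 or 3 left out, where 1.72%, 3.18%, 2.06%, 8.99%, 2.35% and 3.05% of all genes passed toward the DBA/2J hybrids. Ccnb2, Cenpf, Spc25, Kif4, Nusap1, Ube2c and Mki67 passed in all 6 of these fits. Without replicate 3 of the DBA/2J hybrids, the only array low in pancreatic acinar transcripts, the calls of Melk, Aurka, Plk4, Bub1, Bub1b, Ttk, Incenp, Cenpe, Cenpa, Ndc80, Kif23, Kif2c, Kif20a, Hmmr, Tpx2 and Espl1 were lost. In each of those 6 fits all 43 differences stayed negative, and the median lay between -0.93 (without replicate 3 of the DBA/2J hybrids) and -1.34 (without replicate 1 of those hybrids).

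**Figure D2:**
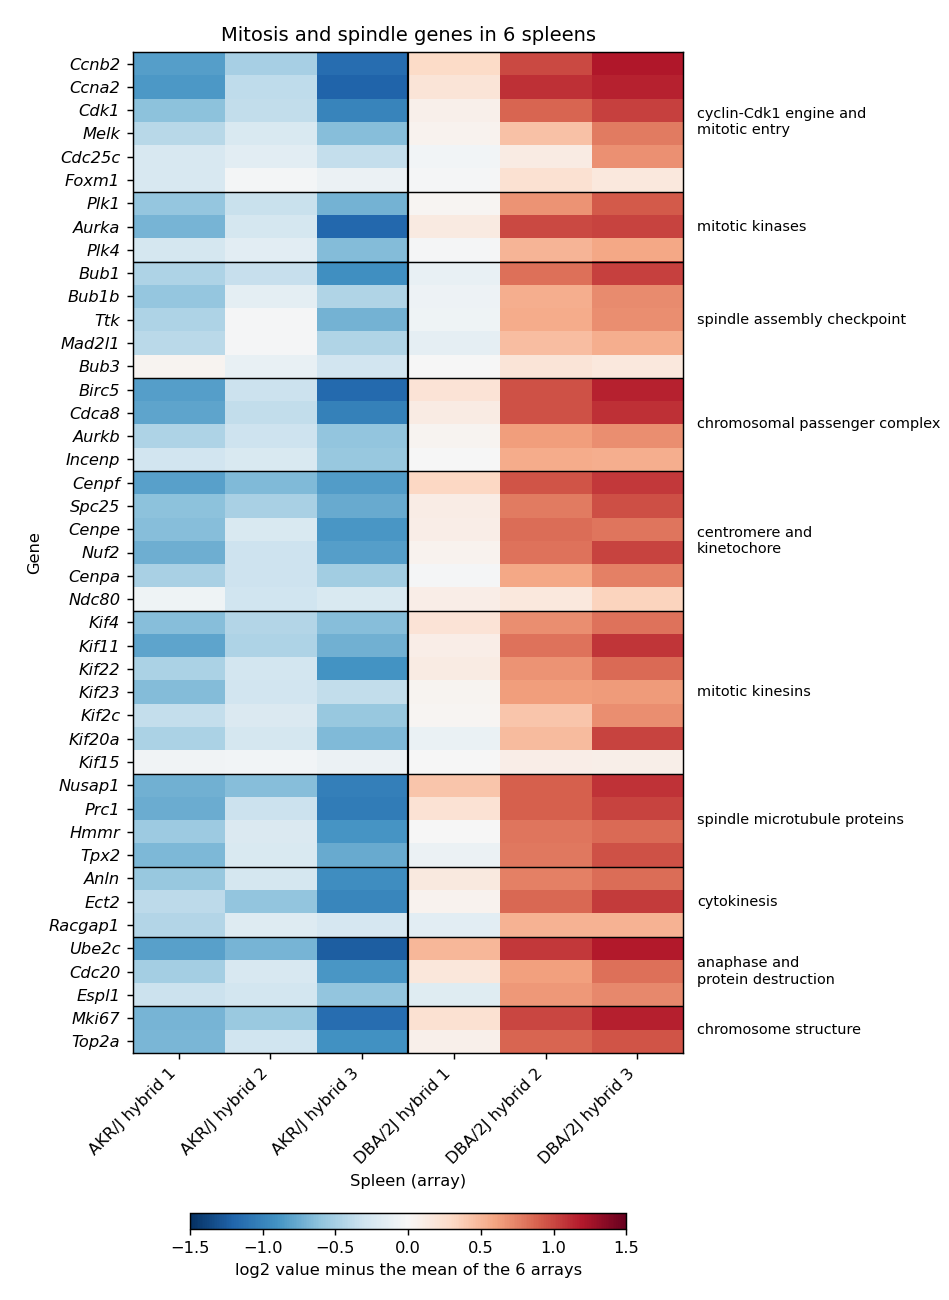
Each row is 1 of the 43 measured genes, grouped by role, and each column 1 spleen; colour is the log2 value minus that gene's mean over the 6 arrays, blue below and red above. The 3 DBA/2J columns are redder than the 3 AKR/J columns in nearly every row, with replicate 3 of the DBA/2J hybrids the highest array for 38 genes and replicate 3 of the AKR/J hybrids the lowest for 37.

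Of the 6 measured genes that start mitosis 4 passed, with a group median of -1.08. Ccnb2, which encodes cyclin B2, a partner of Cdk1, read 7.66, 7.98 and 7.33 in replicates 1, 2 and 3 of the AKR/J hybrids and 8.76, 9.47 and 9.67 in those of the DBA/2J hybrids (log2 level). Even the lowest array of the DBA/2J hybrids lay above the highest of the AKR/J hybrids, and the difference was -1.65 ± 0.24 (SE, limma adjusted p = 0.00916), 3.14-fold. Ccna2, cyclin A2 of S and G2 phase, read 8.10, 8.58 and 7.76 against 9.15, 10.06 and 10.12, again without overlap, with a difference of -1.63 ± 0.28 (limma adjusted p = 0.0139). Cdk1, the kinase that these cyclins activate and whose promoter is printed above, differed by -1.32 and the mitotic kinase Melk by -0.85, and both passed. Cdc25c, the phosphatase that removes the block on Cdk1, had a difference of -0.51, and Foxm1, a transcription factor of G2 and mitosis genes, one of -0.24, and neither passed (limma adjusted p = 0.0802 and 0.115). For these 2 genes the arrays of the crosses still did not overlap, and a dimmer probe set of each did pass over all probe sets, at -0.97 for Cdc25c (limma adjusted p = 0.00675) and -0.59 for Foxm1 (0.0229).

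All 3 genes of the Aurora and Polo kinase group passed. Plk1, which acts at centrosomes, kinetochores and in cytokinesis, read 6.83, 7.07 and 6.70 in the AKR/J hybrids and 7.43, 8.08 and 8.32 in the DBA/2J hybrids. Its difference was -1.08 ± 0.21 (limma adjusted p = 0.0186). Aurka, the Aurora kinase of the spindle poles, read 6.58, 7.01 and 6.10 against 7.41, 8.26 and 8.29, and replicate 3 of the AKR/J hybrids was its lowest array. The difference of Aurka was -1.42 ± 0.28 (limma adjusted p = 0.0190), and that of Plk4, the kinase that starts centriole duplication, was -0.72 (limma adjusted p = 0.0349).

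Spindle assembly checkpoint genes, whose products delay anaphase until all chromosomes are attached, had the smallest median difference of the 10 role groups (-0.79), and 3 of 5 passed. Bub1, a checkpoint kinase at the kinetochore, read 6.81, 6.93 and 6.36 in the AKR/J hybrids and 7.17, 8.10 and 8.30 in the DBA/2J hybrids, with a difference of -1.16 ± 0.28 (limma adjusted p = 0.0324). Bub1b, which encodes the checkpoint protein BubR1, read 6.58, 7.01 and 6.71 against 7.09, 7.71 and 7.88 and differed by -0.79 ± 0.20 (limma adjusted p = 0.0369). In both genes replicate 1 of the DBA/2J hybrids lay just above the highest AKR/J array. At a second Bub1b probe set, however, that replicate (6.68) lay below replicate 2 of the AKR/J hybrids (6.79). This second probe set did not pass (limma adjusted p = 0.0816 over all probe sets). Ttk, the kinase Mps1, passed narrowly at -0.80 (limma adjusted p = 0.0490), and its replicate 1 of the DBA/2J hybrids (5.70) lay below replicate 2 of the AKR/J hybrids (5.75). The call of Ttk was lost when arrays were centred on their medians (limma adjusted p = 0.0557) and after quantile normalization (0.0582), among other settings. Mad2l1 (-0.58), whose product inhibits Cdc20, and Bub3 (-0.23), which also has work outside mitosis, did not pass, and in both the groups overlapped. Bub3 read 10.29, 10.14 and 9.96 against 10.23, 10.44 and 10.40.

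The chromosomal passenger complex, which corrects wrong attachments of chromosomes and later guides cytokinesis, had all 4 of its genes past the threshold. Birc5 (survivin) read 7.76, 8.26 and 7.42 in the AKR/J hybrids and 8.79, 9.54 and 9.75 in the DBA/2J hybrids, a difference of -1.54 ± 0.27 (limma adjusted p = 0.0150). Cdca8 (borealin) read 7.33, 7.75 and 7.11 against 8.24, 9.08 and 9.22, with -1.45 ± 0.26 (limma adjusted p = 0.0152). Neither gene overlapped between the crosses. The kinase of the complex, Aurkb, differed by -0.91 and its scaffold, Incenp, by -0.73.

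Centromere and kinetochore genes all passed, 6 of 6. Cenpf, a large kinetochore protein made in G2, stood close together in the AKR/J hybrids (5.96, 6.12 and 5.94) and clearly above it in the DBA/2J hybrids (7.09, 7.72 and 7.84). Its difference of -1.54 ± 0.18 (limma adjusted p = 0.00446) was one of 7 that passed whichever array was left out. Spc25, a subunit of the Ndc80 complex that binds microtubules, read 6.72, 6.85 and 6.58 against 7.45, 8.12 and 8.31, with -1.24 ± 0.20 (limma adjusted p = 0.0119). Within that same complex Nuf2 differed by -1.25 and Ndc80 by -0.39, so that the probe set of Ndc80 showed the smallest difference among the 37 that passed (1.31-fold). The kinetochore motor Cenpe differed by -1.16 and the centromeric histone Cenpa by -0.88.

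Of 7 mitotic kinesins 6 passed. Kif4, a chromosome-bound motor, read 6.11, 6.31 and 6.11 in the AKR/J hybrids and 6.95, 7.45 and 7.56 in the DBA/2J hybrids, with a difference of -1.14 ± 0.15 (limma adjusted p = 0.00721). Kif11, the motor that pushes the spindle poles apart, read 5.60, 5.93 and 5.67 against 6.49, 7.21 and 7.46, with -1.32 ± 0.23 (limma adjusted p = 0.0134). The AKR/J arrays of both genes lay within 0.33 of each other, while those of the DBA/2J hybrids were spread more widely. Kif22, which moves chromosome arms, differed by -1.10, Kif23 and Kif20a, which act at the midzone and in cytokinesis, by -0.87 and -0.93, and the microtubule depolymerase Kif2c by -0.77. The call of Kif20a was lost with adjustment over all probe sets (limma adjusted p = 0.0506), among other settings. Kif15, a motor that can share the work of Kif11, did not pass (-0.12, limma adjusted p = 0.251), and its only probe set was the dimmest used for any member, at a mean of 4.15.

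The 4 proteins that build and bundle spindle microtubules all differed by more than 2-fold. Nusap1, which holds microtubules near chromosomes, read 7.32, 7.40 and 7.02 in the AKR/J hybrids and 8.46, 8.93 and 9.12 in the DBA/2J hybrids, a difference of -1.59 ± 0.17 (limma adjusted p = 0.00375). It passed whichever array was left out, and it is the gene shown above without either promoter element in its window. Prc1, the crosslinker of the anaphase midzone, read 6.96, 7.37 and 6.65 against 7.92, 8.59 and 8.71, with -1.41 ± 0.24 (limma adjusted p = 0.0129). Tpx2, which activates Aurka on the spindle, and Hmmr, a spindle pole protein, each differed by -1.10.

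Cytokinesis genes passed in 2 of 3 cases. Anln, the ring protein anillin, read 6.28, 6.59 and 5.92 in the AKR/J hybrids and 7.00, 7.61 and 7.69 in the DBA/2J hybrids, with -1.17 ± 0.22 (limma adjusted p = 0.0160). Ect2, which activates RhoA at the cleavage site, read 5.39, 5.19 and 4.80 against 5.84, 6.64 and 6.82, with -1.31 ± 0.25 (limma adjusted p = 0.0183), and the groups of both genes were separate. Racgap1, the partner that brings Ect2 to the midzone, had -0.59 and did not pass (limma adjusted p = 0.0597). It did pass at a second probe set (-0.71, limma adjusted p = 0.0203 over all probe sets).

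Genes of protein destruction at anaphase held the largest difference of all members. Ube2c, the ubiquitin-conjugating enzyme of the anaphase-promoting complex, read 9.08, 9.19 and 8.66 in the AKR/J hybrids and 10.39, 10.95 and 11.08 in the DBA/2J hybrids. Its difference of -1.83 ± 0.20 (limma adjusted p = 0.00368) is 3.57-fold, and the gap between the groups was wider than the spread within either. Cdc20, the activator of that complex in mitosis, read 8.16, 8.43 and 7.79 against 8.84, 9.28 and 9.50, with -1.08 ± 0.20 (limma adjusted p = 0.0160). Espl1, separase, which cuts cohesin so that sister chromatids part, differed by -0.80 (limma adjusted p = 0.0462), a call lost under median centring (0.0527), the trended and robust variance (0.0682), the replicate block (0.0563), averaged probe sets (0.0537), adjustment over all probe sets (0.0564) and the acinar covariate (0.142).

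Of the 2 genes of chromosome structure, Mki67, whose product coats mitotic chromosomes and is the usual marker of dividing cells, read 9.45, 9.59 and 9.001 in the AKR/J hybrids and 10.37, 11.14 and 11.31 in the DBA/2J hybrids (-1.60 ± 0.25, limma adjusted p = 0.0103). Top2a, the topoisomerase that untangles sister DNA, read 8.23, 8.63 and 8.01 against 8.99, 9.80 and 9.86 (-1.26 ± 0.24, limma adjusted p = 0.0178). Both were separate between the crosses.

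**Figure D3:**
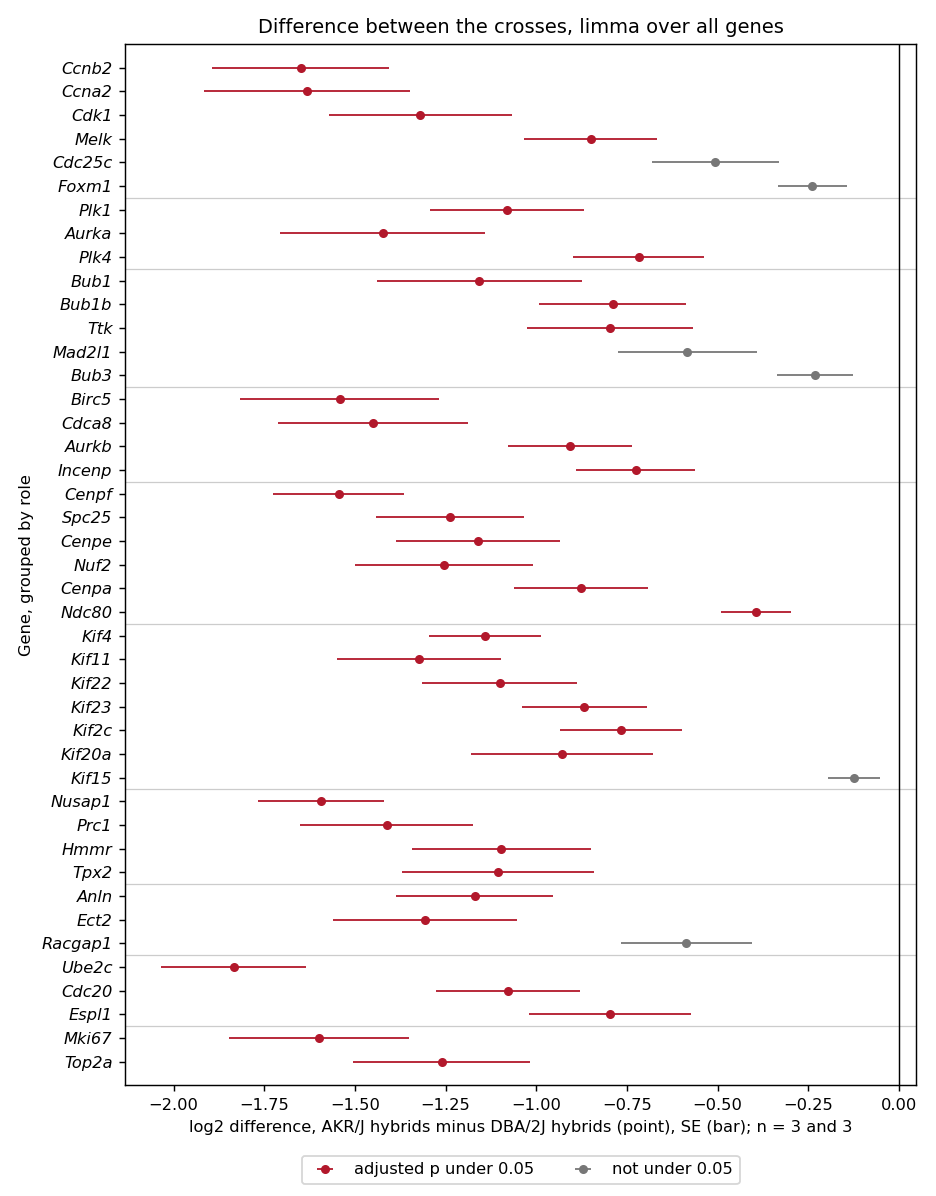
Points are the log2 difference of each member (AKR/J hybrids minus DBA/2J hybrids, 3 animals each) from the limma model over all genes, bars are its SE, and horizontal lines part the role groups. All 43 points lie left of 0, from -1.83 for Ube2c to -0.12 for Kif15, and the 6 grey points did not pass an adjusted p of 0.05.

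The members varied together between animals of the same cross. In the DBA/2J hybrids, replicate 1 was the lowest array for 43 of 43 members and replicate 3 the highest for 38. In the AKR/J hybrids, replicate 2 was the highest for 40 and replicate 3 the lowest for 37. Replicate 1 of the DBA/2J hybrids lay above all 3 AKR/J arrays for 40 members, and replicates 2 and 3 for 43 each. That replicate was a median of 0.57 above the AKR/J mean and 0.70 below the mean of the other 2 DBA/2J arrays. The median SD over the 3 animals was 0.24 for the members in the AKR/J hybrids and 0.41 in the DBA/2J hybrids, against 0.10 and 0.11 over all genes. Since the members' values move together from animal to animal, their 43 differences are not independent of each other.

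Other probe sets of the same genes gave the same direction in all but 4 dim cases. The members had 97 probe sets in all, 28 genes having more than 1. Of these, 60 passed toward the DBA/2J hybrids in limma over all 45037 probe sets (5.26% of all did) and 0 toward the AKR/J hybrids (5.14%). All 77 at or above the 40th percentile of mean level had negative differences, and 59 of them passed. Of the 20 below that level 16 were negative and 1 passed, and the only 4 positive differences of member probe sets were among these. Cdc25c, Foxm1 and Racgap1 each had another probe set past the threshold although the one used did not pass. Ttk, Kif20a and Espl1 passed over genes but had 0 probe sets past the threshold over all probe sets. For the probe sets used, the limma adjusted p over all probe sets was 0.0596 for Ttk, 0.0506 for Kif20a and 0.0564 for Espl1.

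Further genes of mitosis, not among the members, were higher in the DBA/2J hybrids as well. Of 70 measured, 45 passed toward those hybrids (8.31% of all genes did) and 0 toward the AKR/J hybrids (8.91%), and their median was -0.78. The 4 with the smallest p-values were Cdc25b (-0.74), a phosphatase that activates Cdk1, Depdc1b (-1.34), Gtse1 (-0.77), a microtubule-binding protein of G2, and Cdkn3 (-1.53), a phosphatase of cyclin-dependent kinases. Only Cep55, a protein of the final cut between daughter cells, and the kinetochore gene Mis12 had positive differences (0.32 and 0.25), and neither passed. With AKR/J replicate 1 or 3 left out, 10 or 8 passed toward the DBA/2J hybrids, and with DBA/2J replicate 2 or 3 left out, 11 or 20.

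Among 15 genes of the anaphase-promoting complex and its regulators, 2 passed toward the DBA/2J hybrids, where 8.31% of all genes did. They were Fzr1 (-0.82), the activator Cdh1 of late mitosis and G1, and Fbxo5 (-0.99), the inhibitor Emi1. The 13 core subunits had differences between -0.30 (Anapc5) and 0.27 (Anapc10), and 0 passed. With averaged probe sets 1 gene of this list passed toward the AKR/J hybrids, where 8.91% of all genes did in the main fit. No test was made between regulators and core. Of the promoter elements shown above, the DREAM and MuvB complexes act through the cell cycle homology region. Among 12 genes of the DREAM and MuvB regulators 3 passed toward the DBA/2J hybrids, where 8.31% of all genes did. Toward the AKR/J hybrids 1 passed, a count near the share of all genes (8.91%). Mybl2 (B-Myb), which joins MuvB to switch on G2 genes, read 5.49, 6.03 and 5.56 in the AKR/J hybrids and 6.38, 7.39 and 7.33 in the DBA/2J hybrids (-1.34, limma adjusted p = 0.0191), and Tfdp2, a partner of E2F factors, differed by -1.05. Rbl2 (p130), the pocket protein of DREAM in resting cells, read 8.91, 8.88 and 8.86 against 8.66, 8.54 and 8.60 and was higher in the AKR/J hybrids (0.28, limma adjusted p = 0.0369), and E2f5 differed by -0.37. The call of Rbl2 was lost without any 1 array other than replicate 1 of the DBA/2J hybrids, and the count of 3 was 1 without replicates 1 or 3 of the AKR/J hybrids or 2 or 3 of the DBA/2J hybrids and 5 without replicate 1 of the DBA/2J hybrids.

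DNA replication and S phase genes act before mitosis. Of 34 measured, 19 passed toward the DBA/2J hybrids (8.31% of all genes did) and 0 toward the AKR/J hybrids (8.91%). Their median was -0.84, and that of the members was -1.10; the difference between the lists was not tested. E2f2 (-1.28), Fen1 (-0.83), which trims lagging strands, Tk1 (-1.16), thymidine kinase, and Ccne1 (-1.17), cyclin E1, had the smallest p-values. Replicate 1 of the DBA/2J hybrids was lower here than for the members: its mean over the S phase genes was -0.11 relative to the 6-array mean, near replicate 2 of the AKR/J hybrids (-0.17), while for the members the values were 0.07 and -0.30. With AKR/J replicate 1, 2 or 3 left out, 2, 10 and 2 S phase genes passed, and with DBA/2J replicate 1, 2 or 3 left out, 33, 2 and 3. The count was 7 with a trended and robust variance, 29 with array weights and 2 with the acinar covariate. In these 3 fits 7.6%, 11.2% and 1.95% of all genes passed toward the DBA/2J hybrids. Of 13 genes of G1 cyclins and cell cycle brakes 4 passed, all toward the DBA/2J hybrids, where 8.31% of all genes did. They were Rb1 (-0.44), the inhibitors Cdkn2c (-0.63) and Cdkn2d (-0.66), and Ccnd3 (-0.59), cyclin D3. With AKR/J replicate 1 or 2 left out, 1 and 2 of these passed, and 0 did without replicate 3 of the AKR/J hybrids or replicates 2 or 3 of the DBA/2J hybrids. The count was 2 with averaged probe sets (7.49% of all genes passed toward the DBA/2J hybrids) and 0 with the acinar covariate (1.95%). Toward the AKR/J hybrids 0 passed, where 8.91% of all genes did in the main fit. With the replicate block 2 did, and 1 with array weights or with DBA/2J replicate 1 left out. The median of that list was 0.03, and Cdkn1a (0.04) and Cdkn1b (0.02), the inhibitors p21 and p27, did not pass.

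Markers of red cell precursors moved in the same direction as the members, and their mean put the arrays in the same order. Single markers did not all keep that order. Alas2 read 11.35, 11.01 and 11.33 in replicates 1, 2 and 3 of the DBA/2J hybrids. Car1, which did not pass (limma adjusted p = 0.0633), read 10.69 in AKR/J replicate 2 and 10.39 in DBA/2J replicate 1. Of 16 measured erythroid genes 15 passed toward the DBA/2J hybrids, where 8.31% of all genes did, and the median of the erythroid genes was -1.70. Relative to the 6-array mean, the erythroid genes averaged -0.82, -0.62 and -1.28 in replicates 1, 2 and 3 of the AKR/J hybrids and 0.39, 1.10 and 1.22 in those of the DBA/2J hybrids. The members averaged -0.53, -0.30 and -0.74 against 0.07, 0.68 and 0.82. The log2 of the summed erythroid level ran from 12.38 to 13.06 in the AKR/J hybrids and from 14.00 to 14.76 in the DBA/2J hybrids. The lowest value of any erythroid marker was 5.52, for Icam4 in AKR/J replicate 3. With 1 array left out 13 to 16 of the 16 passed, and 15 did without DBA/2J replicate 3. The part of red cell precursors in the mitosis result was not tested.

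The list means of markers of other dividing or blood-forming cells did not follow that order. Among 6 germinal centre B cell genes 0 passed toward the DBA/2J hybrids (8.31% of all genes did) and 1 toward the AKR/J hybrids (8.91%). That 1 was Rgs13 (1.23, at a dim level of 3.76 and 2.53). That call was lost with AKR/J replicate 1 or 2, or DBA/2J replicate 2 or 3, left out, where 0 of the 6 genes passed. The summed level of the list was 8.36 to 8.83 in the AKR/J hybrids and 8.29 to 8.51 in the DBA/2J hybrids. Of 5 early progenitor genes, Kit differed by -0.01 and Myb by -0.20, neither of which passed, while Cd34 was higher in the AKR/J hybrids (0.38, limma adjusted p = 0.0417), a call lost without any 1 array. In the granulocyte precursor, neutrophil, and megakaryocyte and platelet lists 0 genes passed of 5 each. These counts are near the shares of all genes (8.31% toward the DBA/2J hybrids and 8.91% toward the AKR/J hybrids). All 5 differences were negative in each of these lists, with medians of -0.53, -0.19 and -0.35. Of 6 plasma cell genes 1 passed, Derl3, higher in the AKR/J hybrids (0.48), where 8.91% of all genes passed. With any 1 array other than DBA/2J replicate 1 left out, 0 of these 6 passed.

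**Figure D4:**
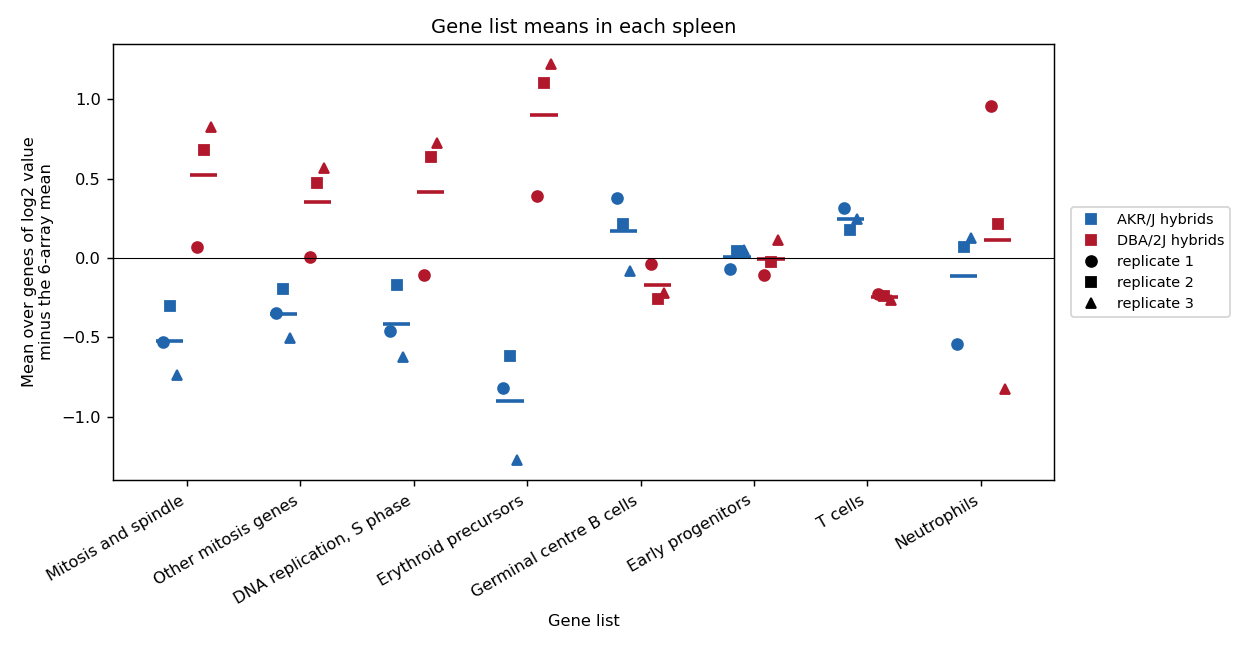
For 8 gene lists (horizontal axis) the vertical axis gives, for each of the 6 spleens, the mean over the list's genes of the log2 value minus the gene's 6-array mean; symbols mark replicates and bars group means. The members (-0.74 to -0.30 in the AKR/J hybrids, 0.07 to 0.82 in the DBA/2J hybrids), the other mitosis genes, the S phase genes and the erythroid genes order the spleens alike, and the early progenitor, germinal centre, T cell and neutrophil lists do not.

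Lymphocyte genes lay the other way. Of 7 T cell genes 7 passed toward the AKR/J hybrids (median 0.41) and of 6 B cell genes 3 (median 0.32), where 8.91% of all genes did. Leaving out AKR/J replicate 1 or 3 or DBA/2J replicate 3 left 4, 3 and 4 T cell calls. The 3 B cell calls became 0, 1 and 0 when AKR/J replicate 1, 2 or 3 was left out and 5, 0 and 0 when DBA/2J replicate 1, 2 or 3 was. Pancreatic acinar transcripts, high in 5 arrays, had 0 of 10 genes past the threshold and a median of 2.97, a size mostly set by DBA/2J replicate 3. All 10 were higher in every AKR/J array than in any DBA/2J array, as were 22% of all genes. The acinar mean level was 13.83 to 13.89 in the AKR/J hybrids and 13.27, 13.65 and 6.13 in replicates 1, 2 and 3 of the DBA/2J hybrids. With their mean as a covariate 9 members passed toward the DBA/2J hybrids (1.95% of all genes did), with a median of -0.91 and all 43 differences negative. These 9 were Ccnb2, Cenpf, Spc25, Kif4, Kif11, Nusap1, Prc1, Ube2c and Mki67. The covariate mostly marks replicate 3 of the DBA/2J hybrids, and it also follows the cross.

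Members with both promoter elements and members with neither were both higher in the DBA/2J hybrids. Of the 36 measured members with a promoter window, 25 held both elements, and 23 of these passed, with a median difference of -1.16. Of 6 with neither element 5 passed, with a median of -1.05: Nusap1, Birc5, Nuf2, Melk and Plk4, while Mad2l1 did not. Anln, Kif2c, Ndc80 and Kif15 held the cell cycle homology region alone (median -0.58), and Cenpe held CCAAT alone (-1.16). No test was made between these classes, and the absence of these letters from a window says nothing of other sites.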

How the data were processed

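Total RNA of 6 spleens was hybridised to Affymetrix arrays, after Trizol extraction, per the labels' protocols. The authors deposited log2 expression per probe set. RMA and MAS5 are named in the submitters' processing notes; which of them made these values, and the build, are not stated there. An RMA summary can compress differences near background, and a sequence difference between the parental strains can alter a probe's signal. No detection calls came with the values, and the number of arrays limits their precision.

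Groups and replicate numbers came from the sample titles. Of 45101 probe sets, 64 controls were left out. Platform annotation gave 1 symbol to 34945 of the remaining 45037, several to 932 and none to 9160. Per gene the probe set with the highest mean over 6 samples was used (18193 genes). Differences were tested with limma 3.58.1 (lmFit, eBayes) in R 4.3.3, 3 against 3 arrays, with Benjamini-Hochberg adjustment over all genes and a threshold of 0.05. An exact permutation test of 3 against 3 cannot go below p = 0.1, so calls rest on the spread that limma pools over genes. P-values rest on the spread between these 6 spleens. No pair of arrays shared more than 181 equal values, so none was a duplicate.

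The members, role groups and other lists were chosen with earlier results of these data known. For each role group the 2 members with the smallest p are given in full; for each other list up to 4 genes with the smallest p; others were named after their values were seen. On simulated data for this comparison with 18193 genes, limma recovered 54% of genes changed by 0.5, 86% by 1 and 98% by 1.5 (log2). Those genes were drawn from all genes with independent noise. The members vary together and more widely, with median SDs of 0.24 (AKR/J) and 0.41 (DBA/2J) against 0.10 and 0.11 over all genes. These rates therefore need not hold for the members. Figures were drawn with matplotlib 3.10.9. Alternatives were median centring, quantile normalization, a filter at the 40th percentile of level, a trended and robust variance, array weights, the replicate block, leaving out each array, averaging each gene's probe sets, adjustment over all probe sets and the acinar covariate.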

Additional observations from a re-analysis of the deposited data

How the results depend on the processing

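The count of members past the threshold toward the DBA/2J hybrids was 37 and ranged from 8 to 40 when 1 array was left out; with the pancreatic acinar mean as a covariate it was 9. Under the other 8 settings that kept all 6 arrays it was 32 to 40, and 36 with the replicate block, although the numbers were not taken as pairs: deviations of same-numbered animals from their group means correlated across genes at 0.17, 0.13 and -0.01, and AKR/J replicate 3 correlated best with DBA/2J replicate 1. With the block Ndc80 (limma adjusted p = 0.0516), Kif20a (0.0532) and Espl1 (0.0563) lost their calls, and Mad2l1 (0.0497) and Racgap1 (0.0326) gained one. No member passed toward the AKR/J hybrids under any of the 15 settings, and the members' median stayed between -0.80 (averaged probe sets) and -1.34. The cell cycle homology region was in 42.5% of member windows, against 17.1% of all, when only the part before the start was searched; the window is shorter by construction. With arrays centred on their medians the median of all genes moved from -0.01 to 0.02. Only 3 spleens a group, and values close to background for Kif15, limit what can be seen. With the acinar covariate 10 other mitosis genes and 1 DREAM or MuvB gene passed toward the DBA/2J hybrids, where 1.95% of all genes did. In that fit 3 T cell and 0 B cell genes passed toward the AKR/J hybrids. There 708 of 18193 genes passed in either direction, 355 of them toward the DBA/2J hybrids. With array weights 3 germinal centre and 3 plasma cell genes passed toward the AKR/J hybrids. There 4337 of 18193 genes passed in either direction, 2029 of them toward the DBA/2J hybrids.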
